A study of Homo sapiens with 5 samples.

Results

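Isolated TEAD4 binding regions were described in LX-2 cells, a human hepatic stellate cell line of myofibroblastic phenotype. Peaks of the deposited list that shared at least 1 bp were merged, and a region was kept when the summit nearest to its own, among all others on its chromosome, lay more than 200 kb away. This gave 992 isolated regions of 19426 merged regions (5.11%), made from 21113 peaks. The spacing chose these regions, so distances between summits are given below as a description only. The LX-2 cells of all samples had received only the solvent DMSO. Chromatin of 3 replicates was immunoprecipitated with an anti-TEAD4 antibody, and 2 input samples were sequenced beside them. The authors compared the replicates by the irreproducible discovery rate (IDR), left out replicate 2 and made their peak list from replicates 1 and 3. The list holds 1 value per peak for both replicates together, so no spread between replicates could be given and the depth per sample is unknown. All values come from 1 cell line in 1 condition, and the comparisons below are between regions of the list, not between treatments.

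TEAD1 to TEAD4 are the DNA-binding partners of YAP and TAZ, the coactivators that the Hippo kinases keep out of the nucleus. YAP and TAZ carry no DNA-binding domain of their own, and TEAD proteins bring them to sites that carry the motif ACATTCC. In activated stellate cells YAP is known to take part in the switch to the matrix-producing state. AP-1 dimers of FOS and JUN proteins, which bind the palindrome-like motif TGACTCA, are known to share many enhancers with TEAD proteins. TEAD-bound enhancers often lie far from the promoter they act on, and in many cell types they occur in groups. The regions described here had no other TEAD4 summit nearby.

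The sequences that follow show the kinds of isolated region on which the results turn, all read on the plus strand of hg38. The first set holds the closest pair of TEAD and AP-1 motifs in 5 isolated regions, the strongest of those with both motifs and a sequence printed here, a set chosen after its values were seen. Capitals mark ACATTCC (TEAD) and TGACTCA (AP-1) on either strand.
COL12A1 as nearest coding gene, chr6:74606882-74606946: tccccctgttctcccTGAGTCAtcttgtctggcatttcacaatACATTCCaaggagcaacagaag
TRPM3 intron, chr9:70954319-70954394: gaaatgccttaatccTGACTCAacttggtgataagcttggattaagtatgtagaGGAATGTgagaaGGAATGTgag
DNAH11 promoter, chr7:21617203-21617262: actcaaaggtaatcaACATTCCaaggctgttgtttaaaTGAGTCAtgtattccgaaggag
VPS72 promoter, chr1:151195437-151195501: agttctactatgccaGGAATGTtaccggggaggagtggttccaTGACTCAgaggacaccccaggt
HTR2A as nearest coding gene, chr13:47215883-47215961: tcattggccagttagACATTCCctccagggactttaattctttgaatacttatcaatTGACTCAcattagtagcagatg
The starts of the paired motifs lay 28, 39, 23, 28 and 42 bp apart in these 5 regions, in the order printed. The DNAH11 region lay in an intron, 0.778 kb from the TSS of an annotated transcript of that gene.

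The second set shows 41 bases centred on the TEAD motif nearest to the summit, in strong isolated regions or in those with the most copies of the motif, with the motif in capitals.
CHST9 intron, chr18:27136330-27136370: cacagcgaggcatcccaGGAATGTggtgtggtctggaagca
SORCS3 as nearest coding gene, chr10:105585916-105585956: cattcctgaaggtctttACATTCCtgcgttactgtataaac
NUBPL intron, chr14:31505532-31505572: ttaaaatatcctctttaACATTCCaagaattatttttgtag
SYNE1 intron, chr6:152491235-152491275: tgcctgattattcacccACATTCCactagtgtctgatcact
LINC00355 as nearest gene, chr13:64239524-64239564: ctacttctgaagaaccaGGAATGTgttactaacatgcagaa
The regions in NUBPL and SYNE1 each held 3 TEAD motifs within 100 bp of the summit, the most of any isolated region, and had signal values of 171.3 and 129.2. Of the 50-base windows within 100 bp of the summit, only 55.9% were unique in hg38 in the SYNE1 region. The SORCS3 and LINC00355 regions held 2 each and had signal values of 333.9 and 214.3. They lay 426.8 kb from SORCS3 and 163.3 kb from LINC00355.

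The third set shows 121 bases around the summit in the 3 strongest isolated regions, which lack the full motif. Capitals mark the 6-base core CATTCC or its reverse complement, a description added after the values were seen.
NUP155 as nearest coding gene, chr5:37272721-37272841: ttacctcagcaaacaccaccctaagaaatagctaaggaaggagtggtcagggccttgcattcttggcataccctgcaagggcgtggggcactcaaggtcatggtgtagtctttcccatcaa
NBPF6 as nearest coding gene, chr1:108503217-108503337: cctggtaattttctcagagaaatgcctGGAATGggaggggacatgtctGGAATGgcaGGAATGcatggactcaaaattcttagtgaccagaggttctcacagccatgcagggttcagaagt
ROBO2 intron, chr3:76497799-76497919: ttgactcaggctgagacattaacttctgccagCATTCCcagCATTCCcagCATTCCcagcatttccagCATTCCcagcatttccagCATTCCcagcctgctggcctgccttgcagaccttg
The first sequence held no core, the second held 3 cores, and the third held 5 cores within a short tandem repeat.

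Strong isolated regions with the AP-1 motif and no full TEAD motif make the last set, shown over 41 bases with the AP-1 motif in capitals.
ROBO2 intron, chr3:76497783-76497823: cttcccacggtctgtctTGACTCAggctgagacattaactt
EDIL3 as nearest coding gene, chr5:85017482-85017522: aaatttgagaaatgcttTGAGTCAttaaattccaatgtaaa
The signal value was 747.1 in the first and 336.8 in the second.

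Isolated regions carried the TEAD motif and the AP-1 motif somewhat more often than other regions, and carried both together more often. A TEAD motif was present in 272 of 992 isolated regions (27.4%, Wilson 95% interval 24.7 to 30.3%) when 100 bp on both sides of the summit were searched, against 24.1% of the 18434 other regions and 24.3% of all merged regions. The difference was 3.33 percentage points (95% interval 0.526 to 6.13, Benjamini-Hochberg adjusted p = 0.0498 over 20 measures, n = 19426 regions). Each such comparison was a linear model over all merged regions with standard errors clustered by 5-Mb block and a two-sided Wald test. The AP-1 motif was found in 303 isolated regions (30.5%, interval 27.8 to 33.5%), in 26.7% of other regions and in 26.9% of all regions, a difference of 3.89 points (interval 0.904 to 6.88, adjusted p = 0.0305, n = 19426). Both calls sat near the threshold. The TEAD call was lost with standard errors from the model without the isolation term (3.33 points, adjusted p = 0.0517, n = 19426) and with single peaks of the most common width (4.30 points). The AP-1 call was lost with windows of 50 bp (3.002 points) or 250 bp (3.34 points). With spacing of 100 kb in the rule the AP-1 difference was 1.60 points and did not pass (adjusted p = 0.147, n = 19426). With spacing of 300 kb the differences were 2.39 and 4.09 points and neither passed (adjusted p = 0.338 for TEAD and 0.115 for AP-1, n = 19426).

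In 79 isolated regions (7.96%, interval 6.44 to 9.82%) both motifs were present, against 4.64% of other regions and 4.81% of all merged regions. This difference of 3.32 points (interval 1.67 to 4.97) was looked at after the values were seen. Over 12 other settings it ran from 1.497 points, with spacing of 100 kb, to 4.61 points, with windows of 250 bp, and the interval was above 0 in each of the 12. These settings reuse largely the same regions, and the measure is outside the 20 that were adjusted, so they are not independent support. Regions with only the TEAD motif made up 19.5% of isolated and 19.4% of other regions, and regions with only the AP-1 motif 22.6% and 22.01%. Neither motif was found in 496 isolated regions (50%) and in 53.9% of other regions. Among isolated regions the AP-1 motif was found in 29.0% of those with a TEAD motif (interval 23.97 to 34.7%) and in 31.1% of those without (interval 27.8 to 34.6%). Among other regions these shares were 19.3% (interval 18.1 to 20.5%) and 29.0% (interval 28.2 to 29.8%), so AP-1 motifs were rarer beside a TEAD motif there.

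**Figure D1:**
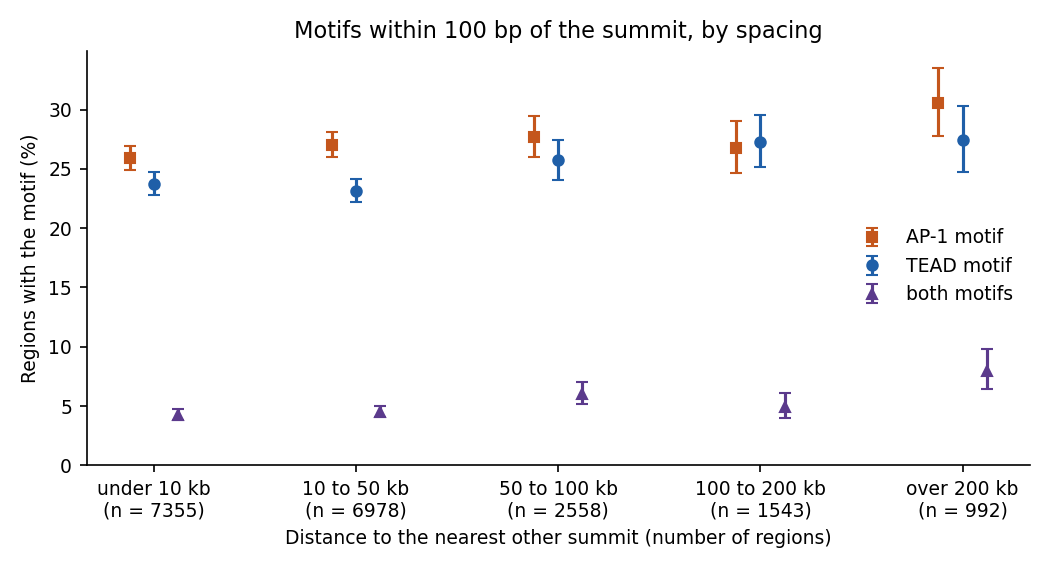
Share of merged regions with the TEAD motif, the AP-1 motif or both within 100 bp of the summit (y axis, %), in 5 classes of distance to the nearest other summit (x axis, number of regions in brackets); points are shares and bars Wilson 95% intervals. The share with both motifs was 4.23% under 10 kb and 7.96% over 200 kb, and the TEAD share was 27.3% at 100 to 200 kb and 27.4% over 200 kb.

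Across classes of spacing the TEAD share was 23.7% under 10 kb, 23.2% at 10 to 50 kb, 25.7% at 50 to 100 kb, 27.3% at 100 to 200 kb and 27.4% in isolated regions. Regions with a neighbour at 100 to 200 kb thus had about the TEAD share of isolated regions, and against regions with a neighbour at 50 to 200 kb the difference was 1.11 points (interval −1.94 to 4.16). The AP-1 share lay between 25.9 and 27.7% in the 4 closer classes and at 30.5% in isolated regions, and against regions with a neighbour at 50 to 200 kb the difference was 3.21 points and did not pass (interval −0.0243 to 6.44, adjusted p = 0.129, n = 5093). The share with both motifs was 4.23%, 4.51%, 6.02%, 4.93% and 7.96% in the 5 classes, from the closest to the isolated. Against regions with a neighbour at 50 to 200 kb it differed by 2.36 points and against those with a neighbour under 10 kb by 3.74 points, and both intervals were above 0.

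The position of the motifs was close to that in other regions. The nearest TEAD motif had its centre a median of 15 bp from the summit in isolated regions and 16 bp in others, and 71.7% and 70.2% of them lay within 25 bp. The nearest AP-1 motif lay a median of 30 bp from the summit in isolated regions and 31 bp in others. Where both were present, the closest pair had starts a median of 37 bp apart in isolated regions and 40 bp in others. In windows of the same length 2 kb to either side of isolated summits, the TEAD motif was found in 2.57% and the AP-1 motif in 3.02% of 1984 windows, against 2.83% and 3.45% beside other summits.

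Other motifs differed less or not detectably. The RUNX motif TGTGGTT was found in 109 isolated regions (10.99%) against 9.86% of all regions, a difference from other regions of 1.19 points (interval −0.775 to 3.15). The E-box CAGATG, bound by basic helix-loop-helix factors, was found in 152 (15.3%) against 16.8% of all regions, a difference of −1.60 points (interval −3.94 to 0.737). The CTCF motif CCANNAGGG was found in 4.54% of isolated and 3.85% of other regions (interval of the difference −0.668 to 2.04), the ETS motif CCGGAAG in 3.13% and 2.09% (interval −0.0455 to 2.11), the SP/KLF motif GGGCGGG in 5.14% and 5.22% and the FOX motif TGTTTAC in 3.02% and 3.65%. The palindrome TTGCGCAA of C/EBP factors was found in 0 isolated regions, which allows a share of up to 0.302%, and in 15 others. Its share of all regions was 0.0772%, under that limit, so a difference could not be shown. CCTTACA, the TEAD motif read backwards without complement, was found in 1.61% of isolated and 2.06% of other regions. All motifs were searched on both strands.

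Among all 3961 words of 7 bases (each counted with its reverse complement) that were common enough to test, 6 differed between isolated and other regions at an adjusted p under 0.05 (0.151% of those tested). All 6 were rarer in isolated regions, and neither the TEAD nor the AP-1 motif was among them. AAATTGC was present in 1.31% of isolated and 3.401% of other regions, ACTCCAC in 1.01% and 2.74%, AGGGGGA in 1.61% and 3.97%, AATCTGT in 1.61% and 3.76%, CAGCTGA in 3.33% and 5.67% and CAGTGGC in 2.82% and 5.01%. No word was called more common in isolated regions. The standard errors rest largely on the spread among isolated regions, which is smaller where a word is rare there. Calls of rarer words are thus favoured, and standard errors from the model without the isolation term do not fully remove this. The 6 words are therefore a description. With spacing of 100 kb in the rule none of the words differed. The count was 2 when words needed at least 40 expected isolated regions. It was 4 with GC content as a covariate, and 4 with standard errors from the model without the isolation term.

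The signal value, which the layout of the list without header gives as the peak caller's measure of enrichment, was lower in isolated regions. It ran from 24.5 to 1074 with a median of 63.8 (quartiles 47.4 and 100.5) in isolated regions, against a median of 72.9 (quartiles 49.8 and 119.9) in other regions, so the groups overlapped widely. The mean log2 signal value was lower by 0.17 on the log2 scale (difference −0.17, interval −0.22 to −0.12, adjusted p = 2.88e-09, n = 19426). Against regions with a neighbour at 50 to 200 kb the difference was −0.07 (interval −0.13 to −0.01, adjusted p = 0.0459, n = 5093), less than in the whole comparison and just past the threshold. The difference was −0.14 inside genes, −0.21 between genes and −0.18 within 2.5 kb of a transcription start site (TSS). Of the 1000 strongest regions, 26 were isolated (2.62% of isolated and 5.28% of other regions, interval of the difference −3.70 to −1.63 points). The highest IDR score of 1000 was reached by 726 isolated regions (73.2%) against 77.3% of all regions (difference from other regions −4.36 points, adjusted p = 0.00768, n = 19426), a call lost against regions with a neighbour at 50 to 200 kb (−2.53 points). The lowest score in the list was 830. Several overlapping peaks had been merged in 59 isolated regions (5.95%), against 8.59% of all regions. The difference from other regions was −2.79 points (interval −4.32 to −1.26). Merging is a step of the rule, though the number of merged peaks does not enter the spacing, and the count is given as a description only.

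**Figure D2:**
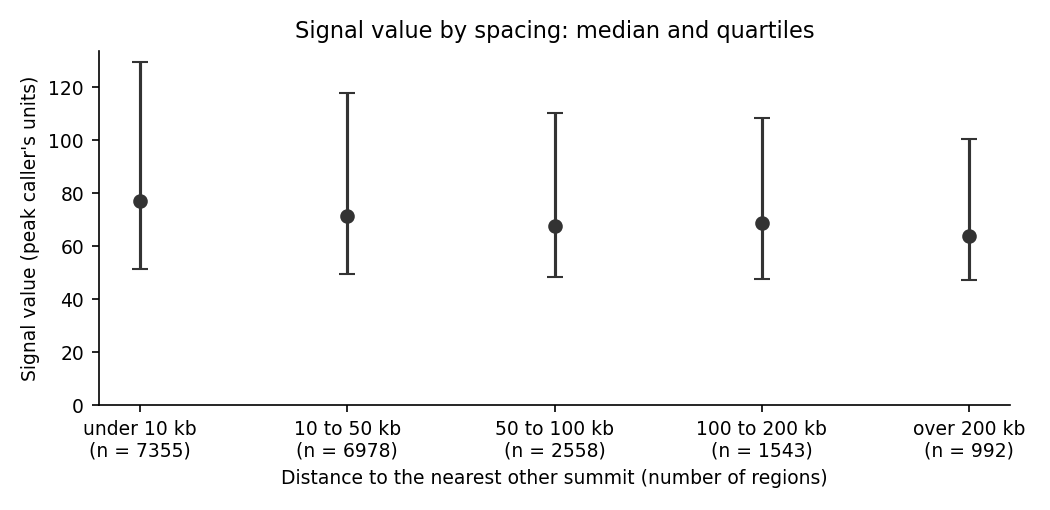
Signal value of merged regions in the peak caller's units (y axis) in 5 classes of distance to the nearest other summit (x axis, number of regions in brackets); points are medians and bars run from the lower to the upper quartile. The median was 77.0 under 10 kb and 63.8 over 200 kb, and the quartile ranges overlapped in all classes.

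The TEAD motif share was higher at higher signal values, among isolated regions as among others. All merged regions were divided into 5 groups of equal size by signal value, which from the lowest to the highest held 229, 234, 211, 182 and 136 isolated regions. Their TEAD motif shares were 17.9%, 26.9%, 29.4%, 30.2% and 37.5%. Other regions in the same groups had 18.8%, 19.97%, 23.1%, 25.6% and 32.8%. The AP-1 share of isolated regions varied less, from 27.9% in the lowest group to 32.97% in the group next to the highest. With the log2 signal value as a covariate the TEAD motif difference was 4.28 points and the AP-1 motif difference 3.9997 points, both past the threshold. Isolated regions with both motifs had a median signal value of 76.4, those with only the TEAD motif 71.3, those with only AP-1 62.3 and those with neither 61.4. In other regions with both motifs the median was 94.1.

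The 12 strongest isolated regions had signal values from 344.5 to 1074, and windows of 50 bases around each of their summits were all unique in hg38. The strongest, chr5:37272452-37273080, had the highest signal value of the whole list (1074). It lay between genes, 20.1 kb from the nearest TSS, that of NUP155, which encodes a nuclear pore protein, and its neighbours were 200.4 and 223.1 kb away. No TEAD core, AP-1 or RUNX motif was found within 100 bp of its summit. The next, chr1:108503020-108503559, with a signal value of 768.7, lay 52.7 kb from NBPF6, a gene of the neuroblastoma breakpoint family.

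The third, chr3:76497633-76498139, had a signal value of 747.1 and ranked 12 in the whole list. It lay in an intron of ROBO2, which encodes an axon guidance receptor for SLIT proteins, 186.5 kb from the nearest ROBO2 TSS of the annotation, with its neighbours 1065 and 2009 kb away. It held 1 AP-1 motif and the 5 cores printed above. The fourth (signal value 615.1) lay at a TSS of TXNRD2, the mitochondrial thioredoxin reductase. The fifth (588.5) lay in an intron of TTBK2, a kinase needed to build cilia, and the sixth (528.0) lay between genes, 554.9 kb from MED13L, a subunit of the Mediator kinase module.

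The other 5 named here had signal values of 387.6 or less. They lay in introns of CHST9 (a sulfotransferase), VPS37C (a sorting protein of the ESCRT-I complex), TRPM3 (a cation channel) and a lncRNA gene 481.5 kb from the collagen gene COL12A1, and 272.6 kb from EPHA5, an ephrin receptor. The full TEAD motif was found in 4 of the 12, and a core with another base before it in 5 more. Among the 4 were those in CHST9 and TRPM3 and the one with COL12A1 as nearest coding gene. Over all isolated regions the core was present in 519 (52.3%) against 48.8% of other regions (interval of the difference 0.346 to 6.73 points), which did not pass in place of the full motif among the 20 measures (adjusted p = 0.0745, n = 19426). GCATTCC was the most common form after ACATTCC, in 20.1% of isolated and 19.1% of other regions.

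Isolated regions lay between genes more often than other regions and in introns less often. Of the 992, 370 were intergenic (37.3%, interval 34.3 to 40.4%) against 31.5% of all regions, and the difference from other regions was 6.07 points (interval 2.90 to 9.25, adjusted p = 0.000897, n = 19426). Introns held 527 (53.1%) against 60.4% of other regions (difference −7.26 points, interval −10.5 to −3.99, adjusted p = 0.000135, n = 19426), and exons held 95 (9.58%) against 8.39% (interval of the difference −0.659 to 3.04). A TSS lay within 2.5 kb of 235 isolated regions (23.7%) against 25.4% of all regions, and the interval of the difference from other regions ran from −4.57 to 0.999 points. Against regions with a neighbour at 50 to 200 kb the difference was −4.16 points and passed the threshold (adjusted p = 0.0258, n = 5093). At 10 kb from a TSS the difference was −4.92 points and passed the threshold (adjusted p = 0.0135, n = 19426). At 1 kb it was 0.158 points, of opposite sign, and did not pass (interval −2.36 to 2.67). With spacing of 100 kb in the rule the intergenic difference was 2.48 points and no longer passed, and the TSS difference turned to 1.70 points (interval −0.272 to 3.68).

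**Figure D3:**
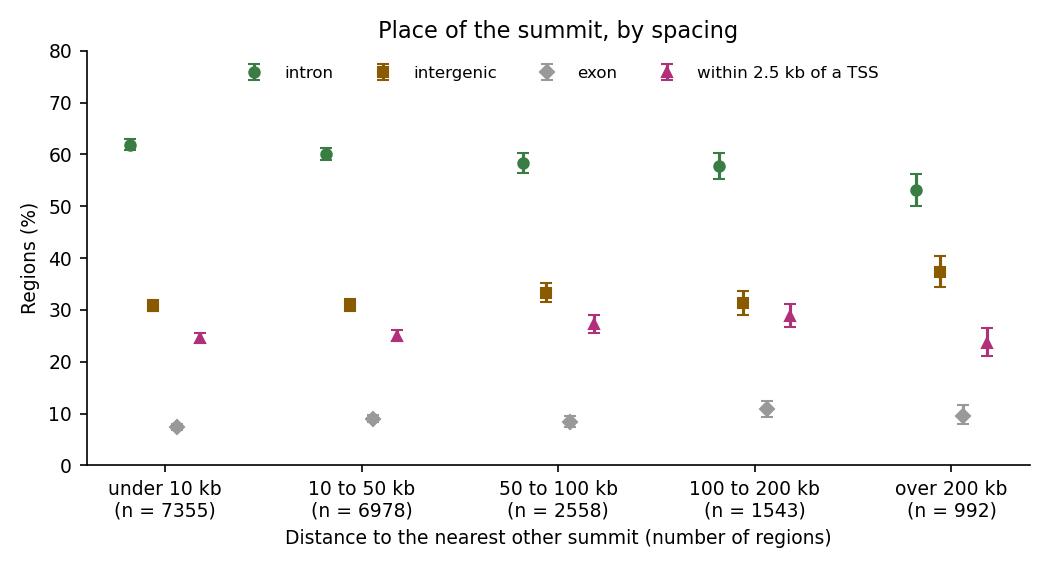
Share of merged regions (y axis, %) whose summit lay in an intron, between genes or in an exon, and share within 2.5 kb of a TSS, in 5 classes of distance to the nearest other summit (x axis, number of regions in brackets); bars are Wilson 95% intervals. The intergenic share was between 30.8 and 33.3% in the 4 closer classes and 37.3% over 200 kb, and the intron share was 61.9% under 10 kb and 53.1% over 200 kb.

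Their surroundings held fewer genes. Isolated regions had a mean of 2.99 protein-coding TSSs within 200 kb, against 3.67 for other regions (difference −0.680, interval −1.03 to −0.332, adjusted p = 0.000850, n = 19426), with 1 TSS counted per gene. In 251 (25.3%) there was no such TSS, against 16.4% of other regions (interval of the difference 5.66 to 12.1 points). The median distance to the nearest TSS of a protein-coding gene was 29.99 kb in isolated regions and 19.95 kb in others, and 283 isolated regions (28.5%) lay more than 100 kb from one, against 18.8% of others (interval of the difference 6.61 to 12.9 points). GC content within 100 kb had a mean of 41.3% around isolated regions and 42.6% around others (interval of the difference −1.75 to −0.868 points). Within 100 bp of the summit GC content was 45.8% and 46.2% (interval −1.03 to 0.351), a difference that was not detectable. With spacing of 300 kb in the rule it was −1.22 points and passed the threshold (adjusted p = 0.0345, n = 19426), as it did against regions with a neighbour at 50 to 200 kb (−0.932 points, adjusted p = 0.0326, n = 5093). Its sign turned with spacing of 100 kb (0.348 points) and against regions with a neighbour under 10 kb (0.0438 points), and neither value passed.

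Split by place, the motif differences were of different size. The TEAD motif share was 28.9% in isolated and 23.6% in other regions inside genes and away from a TSS (difference 5.27 points, interval 0.708 to 9.83), 29.0% and 24.8% between genes (interval −0.803 to 9.07), and 22.6% and 24.2% within 2.5 kb of a TSS (difference −1.64, interval −7.05 to 3.78). The AP-1 motif differed by 5.01 points inside genes, 3.82 points between genes and 1.05 points near a TSS. Whether these differences themselves differed between places was not tested.

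Promoters of protein-coding genes were taken as within 2.5 kb of the TSS of any annotated transcript, including transcripts that start inside the gene. At such promoters 179 isolated regions were found (18.0% of isolated and 19.8% of other regions, interval of the difference −4.35 to 0.797 points), and 82 of them covered a TSS. Promoters rich in CpG (ratio of observed to expected CpG dinucleotides over 0.6 in the 500 bp to either side) held 105 isolated regions, 10.6% of all isolated against 9.18% of other regions, a difference of 1.41 points that did not pass (interval −0.639 to 3.45, adjusted p = 0.298, n = 19426). The share was 13.5% in regions with a neighbour at 100 to 200 kb. Among the 179 promoter regions alone the 105 made up 58.7%, against 46.3% of promoter regions that were not isolated (interval of the difference 4.79 to 19.9 points), a share looked at after the values were seen and outside the 20 measures. The TEAD motif was found in 13 of the 105 at CpG-rich promoters (12.4%, interval 7.38 to 20.04%) and in 26 of the 74 at other promoters (35.1%, interval 25.2 to 46.5%). In regions that were not isolated these shares were 21.9% of 1692 and 25.8% of 1962, so a lower share at CpG-rich promoters was seen there too. Whether the gap differed between isolated and other regions was not tested, and these shares were looked at after the values were seen.

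The strongest isolated promoter region after TXNRD2 was that of PCID2, a subunit of the mRNA export complex TREX-2 (signal value 325.1, 1 AP-1 motif and 1 core). A region in an intron of DNAH11, an axonemal dynein heavy chain, followed with 295.3 and both motifs, 0.778 kb from one of the annotated TSSs of that gene. Next were MSANTD4 (293.4) and VPS72 (270.5), a chaperone of the histone variant H2A.Z, the latter also with both motifs. ZMYND11, a reader of histone H3.3, had a region of 233.8, CIT, a kinase of cytokinesis, one of 220.4, TSPAN1, a tetraspanin, one of 214.4, CMKLR2, a chemerin receptor, one of 209.8, and CFAP54, a cilium protein, one of 200.7. The region at VPS72 was the only one of these 10 besides that at DNAH11 with a full TEAD motif.

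Of the 992 isolated regions, 470 had their summit within a protein-coding gene, over 483 genes where overlapping genes were counted each, and 439 of these genes held no TEAD4 region that was not isolated. The rule largely sets this count, since these 470 regions lay in hosts with a median length of 151.1 kb and no other summit was within 200 kb. GALNTL6, a glycosyltransferase-like gene of 1229 kb, held 3 isolated regions and no other. Hosts of intronic isolated regions had a median length of 177.0 kb, against 171.3 kb for hosts of other intronic regions.

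Genes with known roles were then looked up by their nearest merged region. Of 20007 protein-coding genes, 2565 had an isolated region as the nearest one within 200 kb of a TSS (12.8%). Of 22 YAP-TEAD target genes 0 had one, which allows a share of up to 13.6%, and so had 0 of 10 TEAD genes and cofactors, 0 of 16 contractile genes and 0 of 16 genes of stellate cell quiescence, with upper limits of 30%, 18.8% and 18.8%. These limits are approximate and lie above the background of 12.8%, that of the YAP-TEAD targets only just. Within 200 kb the counts of 0 are thus not shown to differ from the background. Of 71 liver fibrosis matrisome genes 4 had one (5.63%, interval 2.21 to 13.6%), as did 3 of 61 liver fibrosis genes (4.92%, interval 1.69 to 13.5%) and 2 of 24 hepatocyte genes (8.33%, interval 2.32 to 25.8%), among them SERPINA1. All 3 intervals reach 12.8%, so these lower shares are not shown to differ from it. The matrisome genes were DPT (dermatopontin), EMILIN1, SEMA4D and COL28A1, and the liver fibrosis genes LSP1, ODF2L and PTGFRN. All of these but DPT had another coding gene closer to the region, such as MAPRE3 for EMILIN1 and SYT8 for LSP1.

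Collagen genes and neural adhesion genes had shares above 12.8% within 200 kb, with intervals that reached down to it. Of 44 collagen genes 8 had an isolated region as the nearest one (18.2%, interval 9.51 to 32.0%), COL9A1, COL9A3, COL11A1, COL19A1, COL20A1, COL23A1, COL24A1 and COL28A1, and none of these encodes the fibrillar collagens I, III or V of scar tissue. COL9A1 and COL19A1 shared 1 region, and the region at COL11A1, a minor fibrillar collagen of cartilage, covered a TSS (signal value 46.4). The signal values of the 7 regions ran from 45.1 to 71.9. Several of them lay closer to other genes, at 0.244 kb from CLK4 and 35.9 kb from COL23A1, 2.78 kb from DIDO1 and 86.3 kb from COL9A3, 3.12 kb from BIRC7 and 60.4 kb from COL20A1, and over a TSS of MIOS-DT 28.4 kb from COL28A1. Of 63 neural adhesion and synaptic genes 13 had one (20.6%, interval 12.5 to 32.2%), among them CDH10 (signal value 262.7) and CDH18 (245.3), which are type II cadherins, NEGR1 (142.7), NCAM2 (124.9), TENM4 (53.3), ROBO1 (38.1) and ROBO2 (747.1). Others were the protocadherin gene PCDH7 (57.5), the ephrin receptor gene EPHA6 (40.3), the glutamate receptor gene GRIA4 (293.4) and the potassium channel genes KCND2 (172.8) and KCNIP4 (83.2). The region nearest to GRIA4 is the one at the MSANTD4 promoter, 88.3 kb from GRIA4, and that nearest to EPHA6 lay in an exon of CRYBG3, 124.7 kb from EPHA6. The regions for CDH10 and KCND2 lay 143.9 and 156.6 kb from a TSS of these genes. Of 84 developmental transcription factor genes 9 had one (10.7%), with the highest signal values for NFIA (258.0) and ID4 (143.4) and values from 42.4 to 90.4 for LHX9, TBX20, OTX2, ID2, SATB1, MEIS1 and MEF2A. The region for TBX20 lay 199.6 kb from it and 15.7 kb from DPY19L1, that for OTX2 138.6 kb from it and 30.1 kb from TMEM260, and that for SATB1 in an intron of TBC1D5, 55.9 kb from SATB1. With no limit on distance an isolated region was the nearest one for 16.9% of all protein-coding genes. The share was 25% of the collagen genes, 36.5% of the neural genes and 22.6% of the developmental transcription factor genes. Lower shares were found for the matrisome genes (9.86%), the liver fibrosis genes (8.20%) and the hepatocyte genes (12.5%). In the lists of YAP-TEAD targets, TEAD genes and cofactors, contractile genes and quiescence genes it was 0. Of their upper limits, only that of the YAP-TEAD targets (13.6%) lies under 16.9%. The lists are short and were chosen with earlier results known, so these counts are descriptions.

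The share of isolated regions was higher on chromosome X than on any autosome. There 75 of 407 regions were isolated (18.4%, interval 14.96 to 22.5%), against 912 of 19009 on the 22 autosomes (4.80%, interval 4.50 to 5.11%). Chromosome X also had fewer regions per Mb, 2.61 against 6.61 on the autosomes. Chromosome 20 had 10.6 regions per Mb and 11 isolated of 684 (1.61%), and chromosome Y had 5 isolated of 10. Mean spacing follows from the number of regions per Mb, so these values are a description and were not tested. Chromosomes of similar density could have different shares. Chromosome 10 had 5.46 regions per Mb and 8.08% isolated, and chromosome 18 had 5.59 and 4.68%, with overlapping intervals. The motif differences were 3.69 points for TEAD and 4.47 points for AP-1 without chromosomes X and Y.

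Most isolated regions lay not far beyond the limit. The nearest other summit was a median of 306.9 kb away (quartiles 240.2 and 444.5 kb), 189 regions had none within 500 kb on either side and 48 none within 1 Mb. For the other regions the median distance was 15.7 kb. A neighbour was missing on 1 side in 17 regions, and 23 had at least 1 kb of assembly gap within 200 kb. The farthest lay on chromosome Y in an intron of RPS4Y1, 9645 kb from its nearest neighbour. On chromosome X a region at chrX:95063510-95063953 was 5848 kb from its neighbour and 1389 kb from the nearest coding gene, FAM133A, and one in an intron of RPS6KA6, a ribosomal S6 kinase, was 2966 kb away. On chromosome 9 a region in a lncRNA exon, where 57.2% of the 50-base windows were unique, was 3440 kb away, and on chromosome 8 one in an intron of RALYL, an RNA-binding protein gene, 2800 kb. These 5 had signal values between 36.9 and 45.9, under the median of isolated regions, and none held the full TEAD motif.

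Just inside the limit lay a region in an exon of SLITRK5 at 200.07 kb (signal value 43.4), the strongest region of the list at 200.4 kb and a region on chromosome 13 at 200.6 kb (33.5). Just outside lay a pair at 199.99 kb from each other, at the TSS of TONSL (52.0) and in an intron of ARHGAP39 (90.5), and a region 17.7 kb from SCN10A at 199.9 kb (42.8). Apart from the one near NUP155, signal values on both sides of the limit lay between 33.5 and 90.5.

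Sequence around isolated summits was slightly less often unique. All windows of 50 bases, the length of the reads, within 100 bp of the summit occurred once in hg38 in 930 isolated regions (93.8%) and in 96.7% of other regions (interval of the difference −4.58 to −1.29 points). In 11 isolated regions (1.11%) and 41 others (0.222%) the windows had a median of more than 1 copy. With only regions whose windows were all unique, the differences were 3.56 points for the TEAD motif, 4.16 points for the AP-1 motif and −0.17 for the log2 signal value, each past the threshold.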

How the data were processed

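TEAD4 ChIP-seq reads (single-end, 50 bases per the labels) had been mapped by the authors to hg38, and peaks were called from replicates 1 and 3 with their IDR pipeline. The deposited list gives for each peak a scaled IDR score, a signal value, the −log10 of a q-value and the summit offset, all made by the authors. The list has no header, so the columns were identified by the usual layout of such lists and by their ranges, and the peak caller is not given in the sources used here. No column pertains to a single sample.

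Peaks were merged, and genes and TSSs came from GENCODE 44. Unless 1 TSS per gene is stated, the TSSs of all annotated transcripts were used, so some lie inside a gene. Motifs and GC content were read from hg38 within 100 bp of the summit. The 20 measures were compared by linear models over 19426 regions with standard errors clustered over 588 blocks of 5 Mb, two-sided Wald tests and Benjamini-Hochberg adjustment (threshold 0.05). Words of 7 bases needed 20 expected isolated regions. Neighbouring regions share sequence context, and p-values measure the spread between regions, not between cultures. Wilson intervals and limits for a count of 0 (3 counts) cover counting error only. Regions named were the 12 strongest, the 5 farthest, the 10 strongest at coding promoters, the 5 with the most TEAD motifs, 3 on either side of the limit and list genes within 200 kb. Some of these are not reported here. Of 4 AP-1 sequences planned for printing, those in an exon of PCID2 and in a UTR of TMCC1 were left out, and a planned measure of soft-masked repeats could not be made from an upper-case genome. The liver fibrosis lists are those of the study, which chose them. The members and lists were chosen with earlier results of these data known. Code was tested on simulated data. Python 3.11.15, numpy 2.4.6, pandas 2.3.3, scipy 1.17.1, pysam 0.24.0, numba 0.67.0 and matplotlib 3.10.9 were used.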

Additional observations from a re-analysis of the deposited data

How the results depend on the processing

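Over 12 results 132 alternatives were run, 110 planned and 22 chosen after seeing the data, and 104 of them changed neither the direction, nor the call, nor a count by more than 1.5 times. Differences here are isolated minus other regions, in percentage points where no unit is given, and the causes of the changes were not tested. No paired analysis was possible because each peak has 1 value for replicates 1 and 3 together, which also kept either from being left out.

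With spacing of 100 kb there were 2535 isolated regions, and the differences were 1.60 for AP-1 and 2.48 for intergenic regions (both no longer past the threshold), −0.0691 for CTCF, 1.70 for regions within 2.5 kb of a TSS and 0.348 for GC content (all of opposite sign and not past it), with 0 words of 7 bases called in the linear model (417 at an unadjusted p under 0.05). With 300 kb there were 519 regions, TEAD and AP-1 fell short at 2.39 and 4.09, CTCF was −0.430, and GC content passed at −1.22. Against regions with a neighbour at 50 to 200 kb, TEAD (1.11), AP-1 (3.21) and the highest IDR score (−2.53) fell short, while the TSS share (−4.16) and GC content (−0.932) passed. Against regions with a neighbour under 10 kb GC content was 0.0438. AP-1 fell short at 3.002 within 50 bp and 3.34 within 250 bp, where CTCF was −0.858. The TSS share was 0.158 at 1 kb and passed at −4.92 at 10 kb, and GC content within 100 kb passed at −1.31. Requiring 40 expected regions left 2 words. Of the settings chosen after seeing the data, TEAD fell just short with standard errors from the model without the isolation term (3.33), with single peaks of the most common width (4.30) and for the core CATTCC (3.54).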
